A study of Danio rerio with 12 samples.

Results

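The genes described are 6 inflammatory and chemokine genes of zebrafish brain macrophages, picked by Ensembl gene ID out of 33737 gene IDs measured: the CC chemokines ccl34b.1 (ENSDARG00000093608) and ccl34a.4 (ENSDARG00000090873), the tumour necrosis factor gene tnfb (ENSDARG00000013598), the interleukin gene il21 (ENSDARG00000067847), irg1l (ENSDARG00000062788) and the metalloproteinase gene mmp13a (ENSDARG00000012395). They were chosen for how their measured levels differed between cell types and lesion stages, so those differences are given here as a description, with standard errors and without p-values from the fits. All 6 passed the filter on low reads, as did 17613 genes in all.

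The study asked how macrophages repair a ruptured brain vessel. Macrophages came from Tg(coro1a:Kaeda; flk1:eGFP) larvae and endothelial end cells from Tg(flk1:DenNTR; coro1a:eGFP) larvae, all of strain ABGO and tissue brain; the age of the larvae is not given in the labels. Each cell type was taken at 3 lesion stages, namely uninjured control, macrophage arrival and macrophage traction, with 2 libraries at each stage and 12 libraries in all. A 405-nm laser applied for 30 seconds turned the Kaeda or Dendra2 of chosen cells red, about 80 cells in 20 animals, and the red cells were sorted from trypsin-treated heads and read by Smart-seq2, a full-length cDNA method for very small inputs. The coro1a promoter is active in leukocytes in general and not in macrophages alone, so the reporter alone does not set the cell type. The labels do not say that the 2 replicates of a group came from separate animals, so errors and p-values measure the spread between these libraries only. Each SE is from limma, which pools the variance of a gene over the groups and draws it toward that of other genes. It is therefore not the replicate spread of that gene alone, nor that of a single group.

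Chemokines are small secreted proteins that steer leukocytes through receptors of the G protein-coupled kind, and tumour necrosis factors and interleukins are secreted signals that act through receptors on neighbouring cells, in the case of tumour necrosis factor largely through NF-kB transcription factors. In the zebrafish brain ccl34b.1 is used as a marker of a subset of microglia, the resident macrophages. In mammals IL-21 is made mainly by activated T cells and signals through its own receptor paired with the common gamma chain, which use the JAK and STAT proteins. The enzyme encoded by ACOD1, once named immune-responsive gene 1, makes itaconate from an intermediate of the citrate cycle in activated macrophages, and irg1l is named for its likeness to it. The product of mmp13a is a collagenase, which cuts fibrillar collagen of the extracellular matrix.

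Reads in genes ranged from 12283046 to 39447004 per library, and 8929 to 17011 genes had a read. Macrophage markers (17 genes, among them MPEG1, MFAP4, havcr1 and SPI1) summed to 2468 to 6759 RPKM in macrophage libraries, with 14 or 15 at 1 RPKM or more in each. In endothelial libraries they summed to 0.54 to 3.49 RPKM in 5 libraries but to 484 RPKM in endothelial control replicate 2. There SPI1, spi1a, MPEG1, cd68 and ctss2.1 were at 17.8 RPKM or more while havcr1 was at 0.0225 RPKM. Only those 5 of the 17 reached 1 RPKM in that library, and 10, among them lygl1 and marco, had no read. Endothelial markers (11 genes) summed to 9.15 to 32.5 RPKM in macrophage libraries and 205 to 3784 RPKM in endothelial libraries. Of the 11, 9 to 11 were at 1 RPKM or more in each endothelial library except traction replicate 1, which had 5. In that library cdh5 was at 0.555 RPKM and flt1 at 0.0842 RPKM. Erythroid markers (8 genes) summed to 1.65 to 118 RPKM in macrophage libraries, and to 23.1 RPKM in endothelial arrival replicate 1 and 18203 to 64382 RPKM in the other 5 endothelial libraries. Macrophage traction replicate 1 stood apart in 2 marker lists. Neutrophil markers (8 genes) summed to 2817 RPKM there, against 37.2 to 488 RPKM in the other 5 macrophage libraries. Both ends of that range were srgn alone, in macrophage control replicate 2 and macrophage arrival replicate 2. The gene srgn was at 752 RPKM in macrophage traction replicate 1 and also at 56.4 to 391 RPKM in endothelial libraries. Photoreceptor and lens markers (11 genes) summed to 535 RPKM in macrophage traction replicate 1, against at most 5.00 RPKM in the other 5. Photoreceptor and lens markers were also high in endothelial arrival replicate 2 (9397 RPKM) and endothelial traction replicate 1 (9310 RPKM), and fits without these 3 libraries are given where a call ended. Epidermal markers (7 genes) summed to 855 RPKM in macrophage traction replicate 2 and 370 RPKM in macrophage control replicate 1. They summed to 0.678 to 95.2 RPKM in the other macrophage libraries and 130 to 473 RPKM in endothelial libraries. The endothelial sums were mostly krt8, at 69.9 to 357 RPKM, while krt5 and TP63 were at most 0.0636 and 0.0154 RPKM there. Replicates of a group often parted: of the genes at 10 RPKM or more in a library, 27.2% to 44.5% were under 1 RPKM in the other replicate among macrophage groups and 50.6% to 54.7% among endothelial groups.

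The genes ccl34b.1, ccl34a.4 and tnfb were read at high levels in all 6 macrophage libraries, uninjured controls included, and the other 3 were read at lesion stages, il21 mostly at arrival and irg1l and mmp13a at traction. The plot of the 6 genes by library shows the contrast between the genes that were on at every stage and those that were not. RPKM is used below as the level, read number scaled to gene length and library depth, so that levels can be compared between genes. A single gene, ENSDARG00000080337, took 6.49% of reads in macrophage traction replicate 2 and 41.6% in endothelial arrival replicate 1. Such shares shift the RPKM of all other genes between libraries. Since each library holds few cells, fewer expressing cells and less RNA per cell cannot be told apart.

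**Figure D1:**
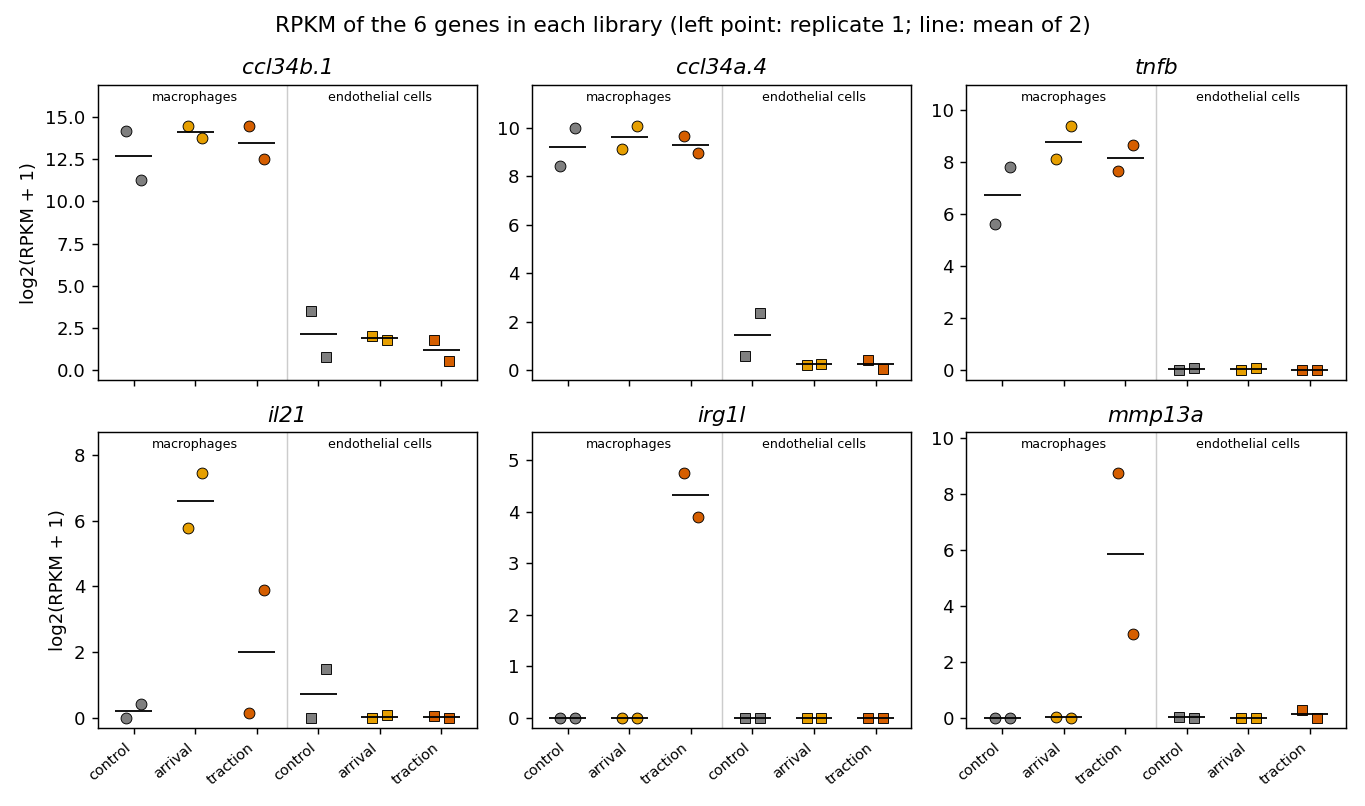
Each panel plots log2(RPKM + 1) of 1 gene for the 6 macrophage libraries (circles) left of the 6 endothelial libraries (squares), by lesion stage; the left point is replicate 1, the right point replicate 2 and the line their mean. The macrophage libraries of ccl34b.1, ccl34a.4 and tnfb lie above all endothelial libraries at each stage, whereas il21 is highest at arrival and irg1l and mmp13a have points clear of 0 only at traction.

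The chemokine ccl34b.1 was among the most abundant messages of the macrophage libraries. It had 17912 and 2459 RPKM in uninjured macrophages, 22323 and 13832 RPKM at arrival and 22544 and 5698 RPKM at traction. In endothelial libraries it had 10.3 and 0.756 RPKM in controls, 3.10 and 2.52 RPKM at arrival and 2.55 and 0.476 RPKM at traction, from 8 to 117 reads. The cell types did not overlap: the lowest macrophage library stood 238 times above the highest endothelial one. It ranked between 2 and 16 among all genes by RPKM in macrophage libraries and at best 3196 in an endothelial library, and it took 0.146% to 1.34% of all reads in genes of a macrophage library. The fitted difference, macrophages minus endothelial cells with stage held, was 11.66 ± 0.78 (SE) on the log2(RPKM + 1) scale used for all differences here.

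Across stages ccl34b.1 varied as much between replicates as between groups. The macrophage libraries spanned 9.17-fold, and the largest gap within a group was that of the uninjured controls themselves. The difference at lesions (the mean of arrival and traction) minus control was 1.09 ± 1.16, and leaving out 1 library at a time moved it between -0.34, without macrophage control replicate 2, and 2.52, without macrophage control replicate 1. By stage it was 1.40 ± 1.34 for arrival minus control, 0.77 ± 1.34 for traction minus control and -0.63 ± 1.34 for traction minus arrival, each about as large as or smaller than its error. Among the other 6 microglia markers, apoeb (ENSDARG00000040295), an apolipoprotein gene, had 10422 and 1656 RPKM in uninjured macrophages, 3276 and 1803 RPKM at arrival and 1773 and 1059 RPKM at traction. P2RY12, a purine receptor gene of microglia, had 124 and 39.1 RPKM in the controls, 6.29 and 25.6 RPKM at arrival and 13.1 and 27.7 RPKM at traction. Both shared with ccl34b.1 the higher value in control replicate 1. Of the 5 microglia markers that passed the filter none was called for lesion minus control. Their median was -1.17 and 0 were above 0, beside a median of 0.26 and 60.9% above 0 over all genes tested. The part of these markers in the ccl34b.1 level was not tested.

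The related chemokine ccl34a.4 was lower and steadier. It had 344 and 1023 RPKM in uninjured macrophages, 556 and 1086 RPKM at arrival and 810 and 496 RPKM at traction. Its endothelial values were 0.511 and 4.15 RPKM in controls, 0.160 and 0.212 RPKM at arrival and 0.351 and 0.0491 RPKM at traction. All 3 macrophage stages overlapped with each other and none with any endothelial library, the lowest macrophage library standing 82.9 times above the highest endothelial one, and the gene spanned 3.16-fold over the macrophage libraries. That highest endothelial library was control replicate 2, which had 5 of 17 macrophage markers at 1 RPKM or more. The next highest was 0.511 RPKM. The fitted difference between cell types was 8.72 ± 0.93, and that of lesion minus control macrophages 0.24 ± 1.34.

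The 2 chemokines were not read in a fixed ratio. The level of ccl34b.1 was 52.1 and 2.40 times that of ccl34a.4 in uninjured macrophages, 40.1 and 12.7 times at arrival and 27.8 and 11.5 times at traction. Replicate 2 was the lower of the pair at each stage. In endothelial libraries the ratio was 7.26 to 20.2 in 5 libraries. It lay within the range of the macrophage libraries but rests on only 1 to 7 reads of ccl34a.4, too few to show a match. In endothelial control replicate 2 the ratio was 0.182, from 14 reads of ccl34b.1 and 93 of ccl34a.4. The CC chemokine genes of fish include close copies, and how the authors' counting treated reads that match more than 1 of them is not stated in the labels, so the division of reads within the ccl34 family is uncertain.

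These 2 genes made up most of the chemokine ligand message of macrophages. Over the 33 chemokine ligand genes with a measured ID the RPKM summed to 3589 to 23937 in macrophage libraries, of which ccl34b.1 was 68.5% to 97.6%, and to 0.743 to 104 in endothelial libraries. Of the other 31, 9 passed the filter and 2 were higher in macrophages than in endothelial cells by limma with Benjamini-Hochberg adjustment over all genes, none lower. The background is 2.15% of genes called higher and 0.676% called lower, 2.82% in all, and every macrophage library lay above every endothelial one for 1.94%. The 9 had a median difference of 1.37, beside 0.19 over all genes tested.

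**Figure D2:**
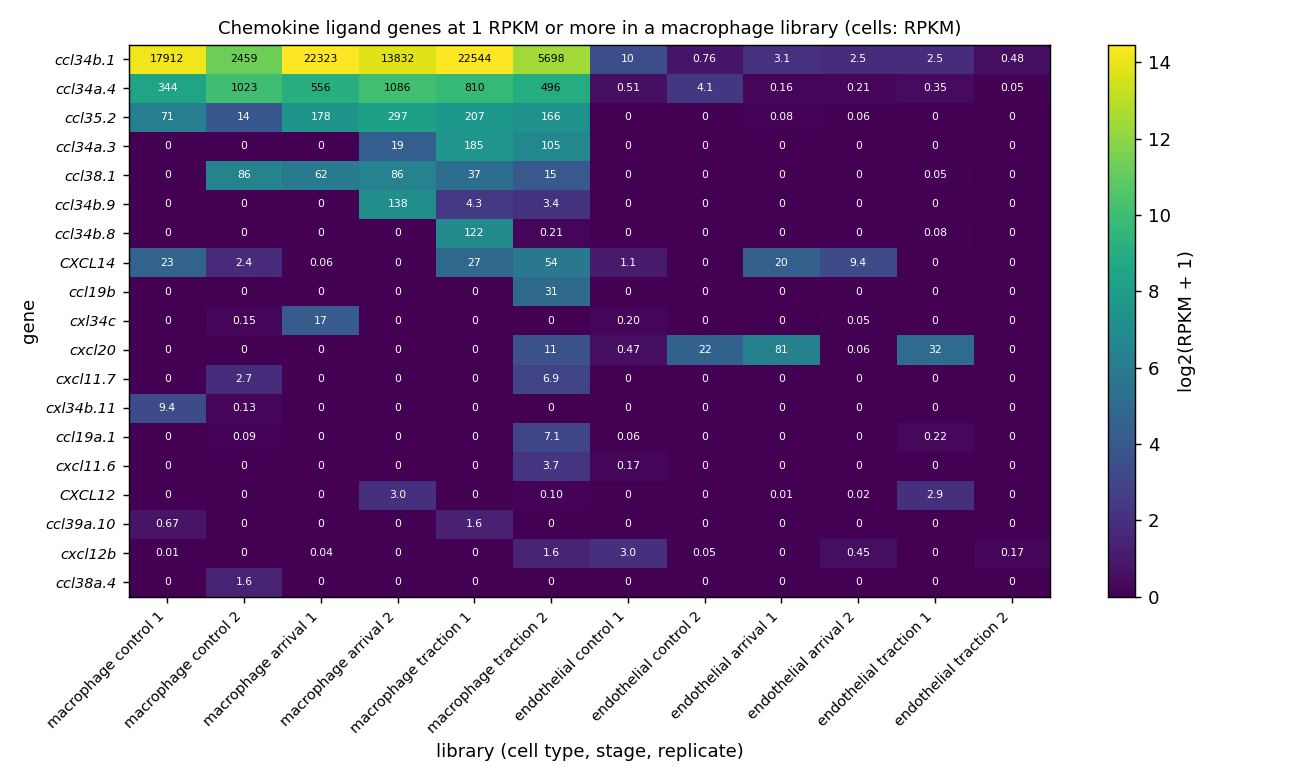
Chemokine ligand genes with 1 RPKM or more in at least 1 macrophage library (rows, ordered by mean macrophage level) in the 12 libraries (columns, macrophages left of endothelial cells); colour is log2(RPKM + 1) and the printed value RPKM. The top 2 rows, ccl34b.1 and ccl34a.4, are filled in all 6 macrophage libraries, ccl35.2 follows at 14.2 to 297 RPKM, and ccl34a.3 is at 0 in the macrophage controls and highest at traction.

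The first of the called pair, the CC chemokine ccl35.2, had 70.9 and 14.2 RPKM in uninjured macrophages, 178 and 297 RPKM at arrival and 207 and 166 RPKM at traction, against at most 0.0837 RPKM in endothelial libraries. It was higher in macrophages by 6.78 ± 1.02 (limma, adjusted p = 1.37e-04). All 4 lesion libraries of ccl35.2 were above both controls, an order that 6.32% of genes tested showed, and the lesion minus control difference of 2.65 ± 1.45 did not pass (limma, adjusted p = 0.903). The second, ccl38.1, was at 0 in macrophage control replicate 1 and at 15.5 to 85.9 RPKM in the other 5 macrophage libraries, with a difference of 4.68 ± 1.11 (limma, adjusted p = 0.0152). Its call ended without macrophage control replicate 2 (0.0529), macrophage arrival replicate 2 (0.0537) or endothelial arrival replicate 2 (0.0505), with no filter (0.0609) and without the 3 libraries with photoreceptor markers (0.233).

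The remaining ccl34 paralogs followed other patterns than the 2 abundant ones. The gene ccl34a.3 was at 0 in both macrophage controls, at 0 and 18.7 RPKM at arrival and at 185 and 105 RPKM at traction, and was listed at 0 in all endothelial libraries. Its traction minus control difference was 7.13 ± 1.64 and did not pass (limma, adjusted p = 0.403). The gene ccl34b.8 had 122 RPKM in traction replicate 1 and at most 0.212 RPKM elsewhere. The gene ccl34b.9 had 138 RPKM in arrival replicate 2, 4.27 and 3.38 RPKM at traction and 0 in the other 9 libraries. The genes ccl34b.3 and ccl34b.4 had at most 0.39 RPKM anywhere.

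Of 27 chemokine receptor genes, 14 passed the filter and 2 were called higher and 1 lower in macrophages, beside 2.15% and 0.676% of all genes tested. The lower one was a copy of CXCR4 (ENSDARG00000057633), a receptor of the chemokine Cxcl12 that guides growing vessels. This copy had 0 to 5.22 RPKM in macrophage libraries and 13.7 to 1053 RPKM in endothelial libraries. Its difference was -6.14 ± 1.19 (limma, adjusted p = 0.00246), and no other CXCR4 copy is described here. The receptor gene cxcr3.2 had 3.18 to 367 RPKM in macrophages; in endothelial cells it had 271 RPKM in control replicate 2 and at most 0.149 RPKM in the other 5 libraries. Its difference was 5.48 ± 1.39 (limma, adjusted p = 0.0249), and that of ccr12a 4.62 ± 1.19 (limma, adjusted p = 0.0276). Both calls held without macrophage control replicate 2 or endothelial control replicate 2 and ended without any 1 of the other 10 libraries, at adjusted p of 0.0585 to 0.108 for cxcr3.2 and 0.0561 to 0.106 for ccr12a. They also ended with no filter (0.202 for cxcr3.2 and 0.116 for ccr12a) and without the libraries with photoreceptor markers (0.404 for cxcr3.2 and 0.396 for ccr12a).

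The cytokine gene tnfb, which encodes a fish tumour necrosis factor beside that of tnfa, was on in every macrophage library. It had 48.8 and 227 RPKM in uninjured macrophages, 278 and 680 RPKM at arrival and 202 and 402 RPKM at traction. In endothelial libraries it had 0 and 0.0727 RPKM in controls, 0 and 0.0575 RPKM at arrival and 0 and 0.0200 RPKM at traction, from at most 4 reads. It had the widest gap between the cell types of the 3 genes read at every stage: the lowest macrophage library was 671 times the highest endothelial one, which was again control replicate 2. The fitted difference, 7.85 ± 1.00, understates such a ratio because 1 is added to endothelial values near 0.

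Both arrival libraries of tnfb were above both controls, and the traction libraries overlapped both other stages. An order with arrival above control was shown by 12.5% of genes tested. Arrival minus control was 2.03 ± 1.66, traction minus control 1.43 ± 1.66 and traction minus arrival -0.61 ± 1.66. The lesion minus control difference of 1.73 ± 1.44 ranged from 0.63, without macrophage control replicate 1, to 2.83, without macrophage control replicate 2, so its sign held in every such fit while its size rested on which uninjured library was kept. Uninjured replicate 1, the lower of that pair for tnfb and ccl34a.4, was the higher for ccl34b.1.

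Among the other 11 ligand genes of the tumour necrosis factor family, 3 passed the filter. Beside 2.15% of all genes tested, 1 of the 3 was called higher in macrophages. This was tnfsf12, the gene of the ligand TWEAK, with 172 and 187 RPKM in uninjured macrophages, 102 and 193 RPKM at arrival and 23.6 and 44.2 RPKM at traction, against at most 2.23 RPKM in endothelial libraries. The difference between cell types was 6.25 ± 1.01 (limma, adjusted p = 3.22e-04). At traction it lay below both controls, with a traction minus control difference of -2.44 ± 1.66 that did not pass (limma, adjusted p = 0.87). The paralog tnfa had 1.97 RPKM in macrophage traction replicate 1 and was listed at 0 in the other 11 libraries.

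Of 25 genes of tumour necrosis factor receptors and NF-kB, 24 passed the filter. In macrophages 3 were called higher and none lower, beside 2.15% and 0.676% of all genes tested. The median difference was 1.62, beside 0.19 over all genes tested. The 3 were nfkbiaa and NFKBIE, which encode inhibitors that hold NF-kB in the cytoplasm, and REL, which encodes an NF-kB subunit. The inhibitor gene nfkbiaa had 57.0 to 480 RPKM in macrophage libraries and 0 to 56.0 RPKM in endothelial libraries (5.04 ± 1.03; limma, adjusted p = 0.00411), and its call ended without the 3 libraries with photoreceptor markers (0.143). NFKBIE had 48.4 to 142 RPKM in macrophages and 30.9 and 18.3 RPKM in 2 endothelial libraries and 0 in the other 4 (4.61 ± 1.14; limma, adjusted p = 0.0204). REL had 9.45 to 142 RPKM in macrophages and, in endothelial cells, 88.8 RPKM in control replicate 2 and at most 0.0475 RPKM elsewhere (4.54 ± 1.24; limma, adjusted p = 0.0401). The call of NFKBIE ended without either arrival library or traction replicate 1 of macrophages, or without arrival or traction replicate 2 of endothelial cells (0.0541 to 0.0793), with no filter (0.0737) and without the libraries with photoreceptor markers (0.127). That of REL held without macrophage control replicate 1 or endothelial control replicate 2 and ended without any 1 of the other 10 libraries (0.0541 to 0.174), with no filter (0.168), with quantile normalization (0.0517) and without the libraries with photoreceptor markers (0.289). No gene of these lists, nor of any other list below, was called between macrophage stages, where limma called 0 genes in all for lesion, arrival or traction minus control (0%; 959, 732 and 1049 genes at an unadjusted p under 0.05, and 196, 220 and 471 called by voom on recovered reads). For traction minus arrival limma called 1 gene, si:rp71-1c10.11, which is in no list (0.00568%; 591 at an unadjusted p under 0.05, 304 called by voom).

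**Figure D3:**
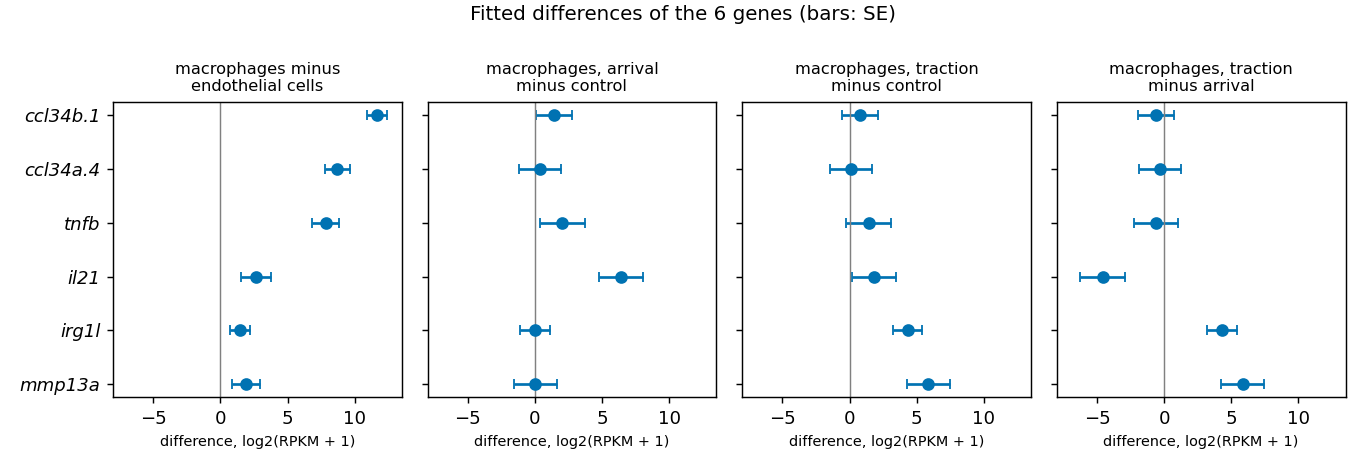
Fitted differences of the 6 genes on the log2(RPKM + 1) scale, with bars of 1 SE: macrophages minus endothelial cells with stage held, and 3 contrasts between macrophage stages. For ccl34b.1, ccl34a.4 and tnfb the first panel holds the widest differences (11.66, 8.72 and 7.85). Their stage panels hold values within or little beyond their error, those of ccl34a.4 lying close to 0. The gene il21 stands at 6.39 for arrival minus control, and irg1l and mmp13a at 4.32 and 5.87 for traction minus control.

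The interleukin gene il21 was read at arrival. It had 0 and 0.334 RPKM in uninjured macrophages, from 0 and 5 reads, then 53.3 and 172 RPKM at arrival, from 1275 and 7844 reads, and 0.116 and 13.7 RPKM at traction, from 3 and 591 reads. Endothelial libraries had 0 and 1.79 RPKM in controls, 0 and 0.0623 RPKM at arrival and 0.0345 and 0 RPKM at traction. The arrival libraries lay above all other 10, and the share of all genes with that order was not counted. The traction libraries parted, replicate 1 lying within the range of the controls and replicate 2 above it. The endothelial value of 1.79 RPKM, from 68 reads, was in control replicate 2, and exceeded both macrophage controls.

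Arrival minus control was 6.39 ± 1.65 for il21, traction minus arrival -4.58 ± 1.65 and traction minus control 1.81 ± 1.65. With traction replicate 2 left out the last of these came to -0.05, and with traction replicate 1 left out to 3.67. Both arrival libraries were above both macrophage controls for 12.5% of genes tested. A pattern with 50 RPKM or more in both arrival libraries and under 1 RPKM in both macrophage controls was shown by 20 genes, 0.114% of those tested. These limits lie close to the values of il21 itself, so the smaller share does not measure how rare its course is. In the authors' deposited table il21 is 1 of 282 genes marked for arrival over control, with an adjusted p of 1, and it is not marked for traction over arrival. Among the 6 genes such marks fell where the authors' unadjusted p was under 0.05. They are no independent support, since the 6 were chosen with results of these data known.

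T and NK lymphocyte markers were given beside il21 because lymphocytes are its main source in mammals. The 11 markers summed to 2.57 to 3.69 RPKM in macrophage controls, 8.19 to 10.1 RPKM at arrival and 3.19 to 7.18 RPKM at traction. The sum was highest at arrival because of il2rb, not of the list as a whole. In macrophage controls il2rb was at 0.0242 and 0.650 RPKM, and at traction at 5.27 and 2.98 RPKM. By contrast cd4-1 was highest in macrophage control replicate 1, at 3.22 RPKM. The gene cd8a was at 1.66 RPKM in macrophage control replicate 2 and 1.91 RPKM in macrophage traction replicate 1. At arrival il2rb, a receptor chain shared by lymphocytes and other leukocytes, made up 8.13 and 8.57 RPKM of the sum; the T cell genes ZAP70, cd4-1, RAG1 and RAG2 were at or below 0.0569 RPKM, and cd8a was at 0 and 1.51 RPKM. The part of lymphocytes in the il21 level was not tested.

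Receptor genes of IL-21 were uneven between replicates. The receptor gene il21r.1 had 0.0442 and 45.5 RPKM in uninjured macrophages, 0 and 0.324 RPKM at arrival and 0.0196 and 17.0 RPKM at traction, and at most 0.109 RPKM in endothelial libraries; il21r.2 had no read in macrophages. At arrival, where il21 was highest, il21r.1 was at or near 0, and in traction replicate 2 both were read. Of the 12 genes of the common gamma chain and IL-21 receptor list 9 passed the filter. None was called between cell types, beside 2.82% of all genes tested, and the median was 1.28, beside 0.19. The kinase gene JAK1 was at 10.1 to 62.6 RPKM in macrophages and 13.1 to 51.9 RPKM in endothelial cells (-0.16 ± 0.95; limma, adjusted p = 0.964). The transcription factor gene stat5a was at 0 to 19.3 and 0 to 46.4 RPKM (0.70 ± 1.16; limma, adjusted p = 0.841).

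Other interleukins and interferons were mostly low. Of 26 ligand genes beside il21, 8 passed the filter. None was called between cell types, beside 2.82% of all genes tested, and the median was 0.43, beside 0.19. The 2 with the highest level were il4, at 453 RPKM in macrophage traction replicate 1, 2.54 RPKM in control replicate 2 and 0 in the other 10 libraries, and IL10, at 131 RPKM in the same traction library and at most 0.0539 RPKM elsewhere.

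The gene irg1l was read only at traction. It had 25.9 and 13.9 RPKM in the macrophage traction libraries, from 1381 and 1239 reads, and no read in the other 10 libraries. A count of 0 allows up to 3 reads, which is 0.0303 to 0.0973 RPKM for irg1l across those libraries. The lower traction library was thus 143-fold above this limit in the macrophage controls and 229-fold above it at arrival. The highest limit of a single library in each group was taken, and it covers counting error only. Of genes at 10 RPKM or more in a macrophage control, 44.5% were under 1 RPKM in the other, and at arrival 37.1%.

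Traction minus control and traction minus arrival were both 4.32 ± 1.1 for irg1l, and leaving out either traction library gave 3.90 to 4.75. Reads in both traction libraries and in none of the other 10 were found for 20 genes, 0.114% of those tested, of which irg1l had the highest level in its lower library. That rule follows the reads of irg1l itself, so the share is a description only. Among the 20 were also lyz, ifi44f3 and cd44a, at 1.22, 5.39 and 0.211 RPKM in the lower library. In the higher library they were at 1447, 30.7 and 9.65 RPKM. The 20 also held ATOH1, cfap418, GCNT7 and MAP3K15. All these were picked out after their values were seen, and a shared function of the 20 was not tested. In the authors' deposited tables irg1l is 1 of 603 genes marked for traction over control and 1 of 620 marked for traction over arrival, each with an adjusted p of 1. Epidermal markers (7 genes) summed to 51.7 to 370 RPKM in macrophage controls, 0.678 to 30.9 RPKM at arrival and 95.2 to 855 RPKM at traction. Single genes made up nearly all of 2 of these sums. They were TP63, at 51.5 RPKM in macrophage control replicate 2, and krt8, at 30.9 RPKM in macrophage arrival replicate 2. The part of epidermal markers in the irg1l level was not tested.

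The ACOD1 gene, whose enzyme makes itaconate, showed a different course from irg1l. It had 0 and 9.64 RPKM in uninjured macrophages, 95.4 and 55.4 RPKM at arrival and 31.9 and 1056 RPKM at traction, and at most 0.0557 RPKM in endothelial libraries. All 4 lesion libraries were above both controls, and arrival already held reads of ACOD1 where irg1l had none. The lesion minus control difference was 5.17 ± 1.64 and did not pass (limma, adjusted p = 0.681). It was called higher in macrophages than endothelial cells, by 5.13 ± 1.18 (limma, adjusted p = 0.0118), a call that ended without macrophage traction replicate 2 (0.0549), with no filter (0.0697) and without the libraries with photoreceptor markers (0.168). Of the 22 genes of itaconate synthesis and the citrate cycle other than irg1l, 20 passed the filter. ACOD1 was the 1 called, beside 2.82% of all genes tested, and the median was 0.77, beside 0.19.

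The collagenase gene mmp13a was read at traction, with replicates far apart. It had 426 and 7.01 RPKM in the macrophage traction libraries, from 19274 and 528 reads. It had 0 in both macrophage controls and 0.0240 RPKM, a single read, and 0 at arrival. Endothelial libraries had 0.0246 and 0 RPKM in controls, 0 at arrival and 0.217 and 0 RPKM at traction. Both traction libraries lay above all others, the lower being at least 61.0-fold above the macrophage controls. The share of all genes with both traction libraries above all others was not counted.

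Traction minus control was 5.87 ± 1.61 for mmp13a and traction minus arrival 5.85 ± 1.61. These errors pool the spread of all 6 groups, most of them at or near 0 for mmp13a. They therefore understate how far the 2 traction libraries parted, at 8.74 and 3.00 on the log2 scale. Without traction replicate 1 traction minus control was 3.00, and without traction replicate 2 it was 8.74. An order with both traction libraries above both controls was shown by 19.1% of genes tested, and reads in both traction libraries with none in the other 4 macrophage libraries by 1.79%; mmp13a missed the second by its single arrival read. The authors' deposited tables also mark mmp13a, as 1 of the same 603 genes for traction over control and 620 for traction over arrival, with adjusted p of 1.

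The level of mmp13a was highest in the library where neutrophil markers were. In traction replicate 1, where mmp13a was at 426 RPKM, the neutrophil lysozyme gene lyz was at 1447 RPKM, MMP9 at 295, scpp8 at 176, npsn at 121 and ABCB9 at 26.6 RPKM. In traction replicate 2, with mmp13a at 7.01 RPKM, lyz was at 1.22 and ABCB9 at 13.6 RPKM, and MMP9, scpp8 and npsn were at 0. In the 4 macrophage control and arrival libraries lyz had no read, while npsn was at 11.3 RPKM in arrival replicate 1 and scpp8 at 9.32 RPKM in control replicate 1, where mmp13a was at 0.0240 and 0 RPKM. Both cxcr1 genes, receptors of neutrophils, had no read in any macrophage library, and srgn was read in all 12 libraries. Macrophage markers were also present in traction replicate 1, at a sum of 4611 RPKM beside 2468 RPKM in replicate 2, and irg1l differed between them by less than mmp13a did. Epidermal markers summed to 95.2 RPKM in traction replicate 1 and 855 RPKM in traction replicate 2. The part of neutrophils or of epidermal cells in the mmp13a level was not tested.

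**Figure D4:**
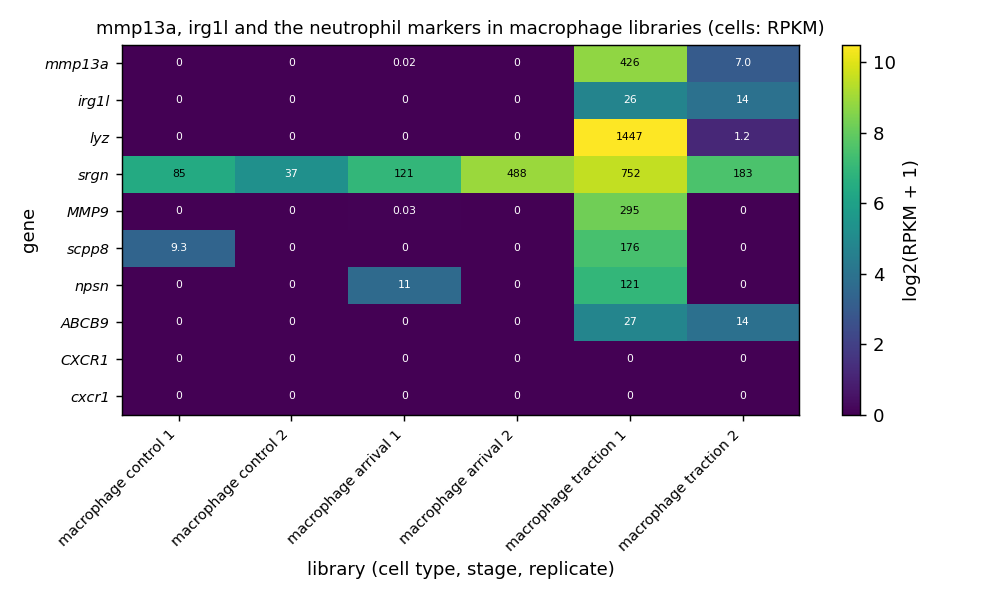
The genes mmp13a and irg1l (top 2 rows) and the 8 neutrophil markers in the 6 macrophage libraries (columns, by stage); colour is log2(RPKM + 1) and the printed value RPKM. In traction replicate 1 mmp13a (426), lyz (1447) and MMP9 (295) are high together, whereas traction replicate 2 holds mmp13a at 7.0, lyz at 1.2 and MMP9 at 0.

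Of 20 other matrix metalloproteinase genes 8 passed the filter and none was called between cell types. The median was -0.14, beside 0.19 over all genes tested. With 2.82% of all genes called, none of 8 is near the background. MMP9, a gelatinase that is also in the neutrophil list, had 295 RPKM in macrophage traction replicate 1, 22.9 RPKM in endothelial control replicate 2 and at most 0.0326 RPKM elsewhere (0.61 ± 1.2; limma, adjusted p = 0.874). The gene mmp30 had 71.4 RPKM in macrophage control replicate 1 and at most 0.0311 RPKM elsewhere. Of 3 inhibitor genes none was called: TIMP2 (ENSDARG00000075261) had 0.0174 to 13.2 RPKM in macrophages and 0.0764 to 184 RPKM in endothelial cells (-3.03 ± 1.1; limma, adjusted p = 0.196), and RECK 0 to 28.9 RPKM and 0 to 79.2 RPKM (-3.23 ± 1.16; limma, adjusted p = 0.182).

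Over all 9 pathway lists, 98 genes other than the 6 passed the filter. In 8 of them (8.16%, beside 6.32% of all genes tested) all 4 lesion macrophage libraries lay above both controls, and in 3 below both (beside 5.71%). None of the 6 genes showed either order. The 8 included ccl35.2, ACOD1, il2rb, ccr12a, the atypical chemokine receptor gene ACKR3, the kinase gene CHUK and the NF-kB gene nfkb2, and the 3 were MAP3K7, TRAF2 and the membrane metalloproteinase gene MMP14, all named after their values were seen. For nfkb2 the order rests on 1 read in arrival replicate 1 and 3 reads in traction replicate 1 against 0 in the controls, within the 3 reads that a 0 allows. MMP14 had 22.8 and 57.3 RPKM in uninjured macrophages, 4.48 and 9.91 RPKM at arrival and 0.0840 and 11.4 RPKM at traction.

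Genes with the pattern most like each of the 6 over the 12 libraries were found by the mean absolute difference of log2(RPKM + 1) after centring each gene. Nearest to ccl34b.1 were c1ql1 (0.73), apoc1 (1.02) and havcr1 (1.26), and nearest to ccl34a.4 were lygl1 (0.50), SLC7A7 (0.53) and lgals3bp.1 (0.54). Nearest to tnfb were cd83 (0.26), STOML3 (0.49) and lygl1 (0.52): cd83 had 52.9 to 650 RPKM over macrophage libraries and at most 0.0800 RPKM in endothelial ones. For irg1l they were CLXN (0.03), itga2b (0.06) and si:dkey-42p14.3 (0.09), for mmp13a lyz (0.34), cd74b (0.37) and UNCX (0.45), and for il21 AK4 (0.67), prokr1a (0.74) and zgc:112962 (0.79). A gene that is flat over the libraries lies at 1.2 from irg1l, 1.62 from mmp13a and 2.04 from il21, so a near pattern is easily met for these 3, whereas it lies at 5.83, 4.36 and 3.93 from ccl34b.1, ccl34a.4 and tnfb. Among the 6 themselves the closest pairs were irg1l with mmp13a (0.62) and ccl34a.4 with tnfb (0.83).

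Endothelial cells showed no lesion difference beyond its error in any of the 6 genes. Lesion minus control was -0.60 ± 1.16 for ccl34b.1, -1.23 ± 1.34 for ccl34a.4, -0.02 ± 1.44 for tnfb, -0.71 ± 1.43 for il21 and 0.05 ± 1.39 for mmp13a, and irg1l had no read. Without endothelial control replicate 2, which had 5 of 17 macrophage markers at 1 RPKM or more, ccl34a.4 came to -0.35 and il21 to 0.03. Without endothelial control replicate 1 ccl34b.1 came to 0.75. The difference of the lesion effects, macrophages minus endothelial cells, was 4.81 ± 2.03 for il21, 2.89 ± 1.97 for mmp13a, 2.16 ± 1.35 for irg1l, 1.75 ± 2.03 for tnfb, 1.69 ± 1.64 for ccl34b.1 and 1.47 ± 1.89 for ccl34a.4. For that difference limma called none of the genes tested (0%; 704 at an unadjusted p under 0.05, 63 called by voom).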

How the data were processed

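The authors deposited RPKM for 33737 genes in 12 libraries, per the file headers, which were taken as the level. In 6 further tables the authors deposited group means, a signal of reads divided by size factors, with p-values and adjusted p-values for pairs of stages. DESeq 1.16.0, HTSeq 0.6.0, TopHat2 2.0.12 and Bowtie2 2.2.3 are listed without roles in the submitters' processing notes. No genome build is given in the sources used here, and no coordinates or sequences are printed. Combining RPKM and group means gave whole reads, in 100% of values above 0 within 0.05 reads in each library. A floor for a value of 0 is 3 reads in that library; it covers counting error only, since no molecular identifiers are described.

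Differences are from limma 3.58.1 (R 4.3.3) with trend and robust settings on log2(RPKM + 1), over all 12 libraries and 6 groups, with Benjamini-Hochberg adjustment over 17613 genes; low genes (under 10 reads at the median depth in 2 libraries or 15 in all) were left out. The cell type comparison held stage as a term. Each cell type came from its own transgenic line, so differences between cell types cannot be told apart from those between lines. Printed SEs use the variance that limma moderates over all genes tested. That variance pools the groups, as does the SD within groups given next. Groups at or near 0 therefore lower both for irg1l, mmp13a and il21. For these genes neither measures the spread at the stage where they were read. For irg1l the SD within groups was 0.244, beside an SE of 1.1 for a stage difference. These were 0.77 and 1.55 for ccl34a.4, 0.79 and 1.66 for tnfb and 1.26 and 1.65 for il21. They were 1.34 and 1.34 for ccl34b.1 and 1.66 and 1.61 for mmp13a. Code was checked on simulated data. The alternatives were a pseudocount of 0.1, no filter, quantile normalization, a replicate block, voom (a limma method for counts) on recovered reads, and leaving out single libraries or the 3 with photoreceptor markers. Symbols were found for 14201 of the 17613 IDs. The 6 genes and all gene lists were chosen with earlier results of these data known. From each list up to 4 called genes with the largest difference between cell types are named, or else 2 with the highest level, with paralogs of the 6 and the 3 genes of nearest pattern.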

Additional observations from a re-analysis of the deposited data

Results flagged for a closer look

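Of 44 sets of 6 libraries of 1 cell type (those whose highest library reached 1 RPKM, a limit set after the data were seen), 19 held a library set apart from the other 5 on the log2 scale by Dixon's criterion, which chance alone meets in about 5% of groups. That share is no chance value for these sets, since many of the genes were named for a high level and each set pools 3 stages. In macrophage traction replicate 1 the high values were mmp13a at 426 RPKM (other macrophage libraries at most 7.01), il4 at 453, IL10 at 131, MMP9 at 295, ccl34b.8 at 122 and tnfa at 1.97 RPKM. Endothelial control replicate 2 had 5 of 17 macrophage markers at 1 RPKM or more. Its high values were ccl34a.4 at 4.15 RPKM (others at most 0.511), il21 at 1.79 and REL at 88.8 RPKM. Also high there were cxcr3.2 at 271, ccr12a at 6.51 and MMP9 at 22.9 RPKM. Single high values were also tnfsf12 at 2.23 RPKM in endothelial arrival replicate 2, ccl34b.9 at 138 RPKM in macrophage arrival replicate 2 and mmp30 at 71.4 RPKM in macrophage control replicate 1. Low values among macrophages were cxcr3.2 at 3.18 RPKM (others 128 to 367) and ccr12a at 0 (others 41.1 to 156) in control replicate 2, and ccl38.1 at 0 in control replicate 1. Among endothelial cells RECK was at 0 in control replicate 1, against 29.0 to 79.2 RPKM in the other 5.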

How the results depend on the processing

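Of 540 member differences under the alternatives, 469 moved by less than the replicate SD and 71 by more. All 6 genes stayed above 0 for macrophages minus endothelial cells in each of 18 alternatives. That sign is no test, since the genes were chosen for such differences and irg1l had no endothelial read. For lesion minus control macrophages ccl34b.1 stayed above 0 in 17 and ccl34a.4 in 16. Counts of genes called depended on the setting, and the cause was not tested. For macrophages against endothelial cells (497 genes) they were 307 with no filter, 1089 with voom, 176 without the 3 photoreceptor libraries and 301 to 522 leaving out 1 library, the lowest without macrophage arrival replicate 2. Voom called 196 genes for lesion, 220 for arrival and 471 for traction minus control macrophages, 304 for traction minus arrival, 209 for lesion minus control endothelial cells and 63 for the difference of lesion effects. Without the photoreceptor libraries, 657 were called for lesion minus control, 1021 for traction minus control and 1012 for traction minus arrival, where macrophage traction replicate 2 stands alone and is assumed to vary like other groups. Traction minus arrival, with 1 gene called, had 0 with a pseudocount of 0.1, no filter or quantile normalization. Leaving out 1 library gave 0 to 169 for lesion, 0 to 79 for arrival and 0 to 245 for traction minus control macrophages, 0 to 253 for traction minus arrival, 0 to 22 for endothelial lesions and 0 for the difference of lesion effects; the highest counts came without macrophage control replicate 1 (lesion, arrival), macrophage traction replicate 1 (traction) or endothelial control replicate 1. Quantile normalization moved the median of all genes from 0.19 to -0.06 for cell type and from 0.26 to 0.04 for lesions. Deviations of same-numbered replicates correlated at -0.211 to 0.14 over 15 pairs of groups. With replicates this far apart, such correlations cannot show whether libraries shared a run or a pool. With the replicate block 508 genes were called between cell types and 1 for traction minus arrival. The planned count test was not run, since no count table was used; voom took its place. The number of cells and reads limits what a value of 0 shows.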
